A study of Mus musculus with 8 samples.

Results

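The expression of 31 lysosomal genes was examined in effector Treg (eTreg) cells from spleens and tumors of mice with and without Blimp1 in their Treg cells. The genes were set by a list of symbols, matched to the gene names of the count files, and all 31 were found among the 49212 genes counted. They comprise 5 lysosomal membrane proteins, 9 cysteine proteases, 3 aspartic or serine proteases, 8 glycosidases, 5 genes of lipid handling and progranulin. The list goes by lysosomal function with no threshold on a measured value, though it was drawn up with earlier results of these libraries known. The question put to the genes was whether Lamp1 moved with the other lysosomal genes or alone. The study had already named Lamp1 among the genes raised in KO tumor eTreg cells, from these same libraries. Its rank in that contrast is therefore not an independent result. Every member passed the low-count filter of every comparison.

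Lysosomes are acidic compartments in which proteins, glycans and lipids are broken down by soluble hydrolases. Lamp1 and Lamp2 are the heavily glycosylated proteins that line the lysosomal membrane, and in killer lymphocytes Lamp1 (CD107a) reaches the cell surface when lytic granules are released. Cathepsins cleave proteins inside lysosomes, and in antigen-presenting cells, macrophages above all, they are highly expressed and take part in processing antigen. Many lysosomal genes carry an E-box, CACGTG, near the start site, the core of the motif that TFEB and its relatives bind to raise lysosomal genes together.

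Cells were sorted as CD45+CD44+YFP+CD4+CD3+ from C57BL/6 mice of 2 genotypes, FoxP3YFP-Cre (WT) and Prdm1fl/flFoxP3YFP-Cre (KO). In both, Foxp3 drives Cre and YFP, so the WT cells carry the Cre as well, and in KO mice the loss of Prdm1, which encodes Blimp1, is limited to cells that have expressed Foxp3. All mice bore subcutaneous B16.OVA melanoma and were immunized intraperitoneally with NP-OVA, in CFA on the day of inoculation and in IFA a week later. No untreated group and no age is given in the labels. Each of the 4 groups, WT spleen, KO spleen, WT tumor (WT TIL) and KO tumor (KO TIL), had 2 libraries, with 27834676 to 43903859 counts on genes. The labels do not say whether replicates came from separate mice, so the p-values measure only the spread between these libraries.

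The TIL libraries stood apart from each other as well as from spleen. Genes of macrophages, summed over 12 markers, were at 16670 and 1939 CPM in KO TIL replicates 1 and 2, at 3384 and 523.4 CPM in WT TIL, and at 306.8 to 2131 CPM in spleen, although the sort required CD3 and CD4. Markers of melanoma cells, 6 genes, summed to 829.7 to 3198 CPM in TIL and 3.69 to 6.74 CPM in spleen, and Cd8a and Cd8b1 summed to 405.7 and 2220 CPM in KO TIL against 148 and 48.24 CPM in WT TIL. The summed markers of dendritic cells, neutrophils, NK cells and B cells were likewise highest in KO TIL 1, at 209, 374.8, 766.6 and 30.68 CPM, and were at 66.8, 65.66, 166.9 and 3.70 CPM or less in WT TIL. The 9 genes of the sorted cells, Foxp3 and Cd3e among them, were detected in every library and summed to 2264 and 4364 CPM in KO TIL, 8950 and 11820 CPM in WT TIL and 5280 to 6701 CPM in spleen. Without Ctla4, which alone was at 4136 and 5719 CPM in WT TIL, the sums were 1804 and 3446 CPM in KO TIL, 4814 and 6104 CPM in WT TIL and 4968 to 6391 CPM in spleen. Cd4 was at 148 and 66.2 CPM in KO TIL against 807 and 1086 CPM in WT TIL, and Foxp3 at 10.2 and 2.99 CPM against 25.5 and 60.5 CPM, so both were lowest in KO TIL. The part of these differences in the results on lysosomal genes was not tested. Prdm1 itself was at 90.7 and 75.1 CPM in KO TIL against 108 and 192 CPM in WT TIL, and at 40.6 and 53.4 CPM in KO spleen against 54 and 21 CPM in WT spleen. A floxed allele loses only part of the gene, and counts over all its exons do not check the deletion. Levels are given as CPM, counts brought to a common library total with edgeR's TMM method, and in such bulk libraries fewer cells of a type and less RNA per cell cannot be told apart.

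The promoters of 26 of the 31 members were matched by symbol in RefSeq (GRCm38.p6), taken as 250 bases before and 50 after the start. CACGTG, which reads the same on both strands, lay in the promoters of 10 of these 26 genes, against 8.09% of all 27025 genes with a promoter in the table (7.15% of its 32851 promoters, all of that length). The 7-letter form TCACGTG, searched on both strands, was found for 8 of the 26, against 4.29% of all genes, and TCACGTGA for Ctsa, Ctsd and Gla, 3 of the 26, against 1.12%; every match of a longer form is also one of the shorter. Lamp1 held 4 copies of CACGTG, beginning 61, 45, 28 and 15 bases before its start, and only 8 of the 32851 promoters held as many. The 250 bases before the start are shown for Lamp1, for its partner Lamp2, for Psap, whose order among the TIL libraries was that of Lamp1, and for Gla, a member that was higher in WT TIL than in WT spleen, with each CACGTG in capitals.
Lamp1, chr8:13158911-13159160, plus strand: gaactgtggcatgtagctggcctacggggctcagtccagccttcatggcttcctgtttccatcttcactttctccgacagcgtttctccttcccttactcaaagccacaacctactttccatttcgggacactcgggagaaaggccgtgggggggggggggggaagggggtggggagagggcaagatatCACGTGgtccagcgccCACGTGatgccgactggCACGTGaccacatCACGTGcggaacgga
Lamp2, chrX:38456461-38456710, minus strand: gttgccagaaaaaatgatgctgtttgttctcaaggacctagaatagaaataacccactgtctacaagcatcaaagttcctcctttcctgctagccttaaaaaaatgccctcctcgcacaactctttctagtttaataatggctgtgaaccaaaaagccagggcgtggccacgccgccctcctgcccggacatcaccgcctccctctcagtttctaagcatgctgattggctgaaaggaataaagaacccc
Psap, chr10:60277378-60277627, plus strand: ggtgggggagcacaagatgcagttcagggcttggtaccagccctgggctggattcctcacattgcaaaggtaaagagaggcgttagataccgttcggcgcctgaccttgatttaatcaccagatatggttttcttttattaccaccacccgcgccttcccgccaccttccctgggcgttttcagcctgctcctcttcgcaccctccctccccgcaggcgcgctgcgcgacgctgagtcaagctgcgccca
Gla, chrX:134601006-134601255, minus strand: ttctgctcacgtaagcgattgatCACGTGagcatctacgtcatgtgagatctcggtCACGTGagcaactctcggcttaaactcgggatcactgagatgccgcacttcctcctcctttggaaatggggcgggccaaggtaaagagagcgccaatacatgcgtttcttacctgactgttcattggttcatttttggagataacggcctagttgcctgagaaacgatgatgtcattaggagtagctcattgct
Lamp2 and Psap have no CACGTG in this window, and Gla has 2. The 10 members with the letters had a median log2 fold change of 0.45 between KO and WT TIL, and the 16 without it 0.67, values given without a test.

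Across the 8 libraries, Lamp1 followed a course that its partner Lamp2 did not. Lamp1 (chr8:13159161-13175338, GRCm38, plus strand) was at 172 and 229 CPM in WT spleen, 217 and 242 CPM in KO spleen, 58.65 and 24.56 CPM in WT TIL, and 1088 and 266 CPM in KO TIL, for replicates 1 and 2. The WT TIL libraries were thus the lowest of the 8 and lay below every splenic library, while KO TIL replicate 2 lay just above the splenic values and replicate 1 far above them. Lamp2 (chrX:38401357-38456454, minus strand) was at 169 and 106 CPM in WT spleen, 198 and 199 CPM in KO spleen, 425 and 343 CPM in WT TIL, and 997 and 277 CPM in KO TIL. Every TIL library was above every splenic one for Lamp2, in both genotypes. The ratio of Lamp1 to Lamp2 counts was 1.02 to 2.17 in the 4 splenic libraries, 1.09 and 0.959 in KO TIL, and 0.138 and 0.0716 in WT TIL. Grtp1 overlaps Lamp1 on the other strand, and whether counting used strand is not given in the sources used here, but it held a median of 69.5 counts over the libraries against 6777.5 for Lamp1.

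**Figure D1:**
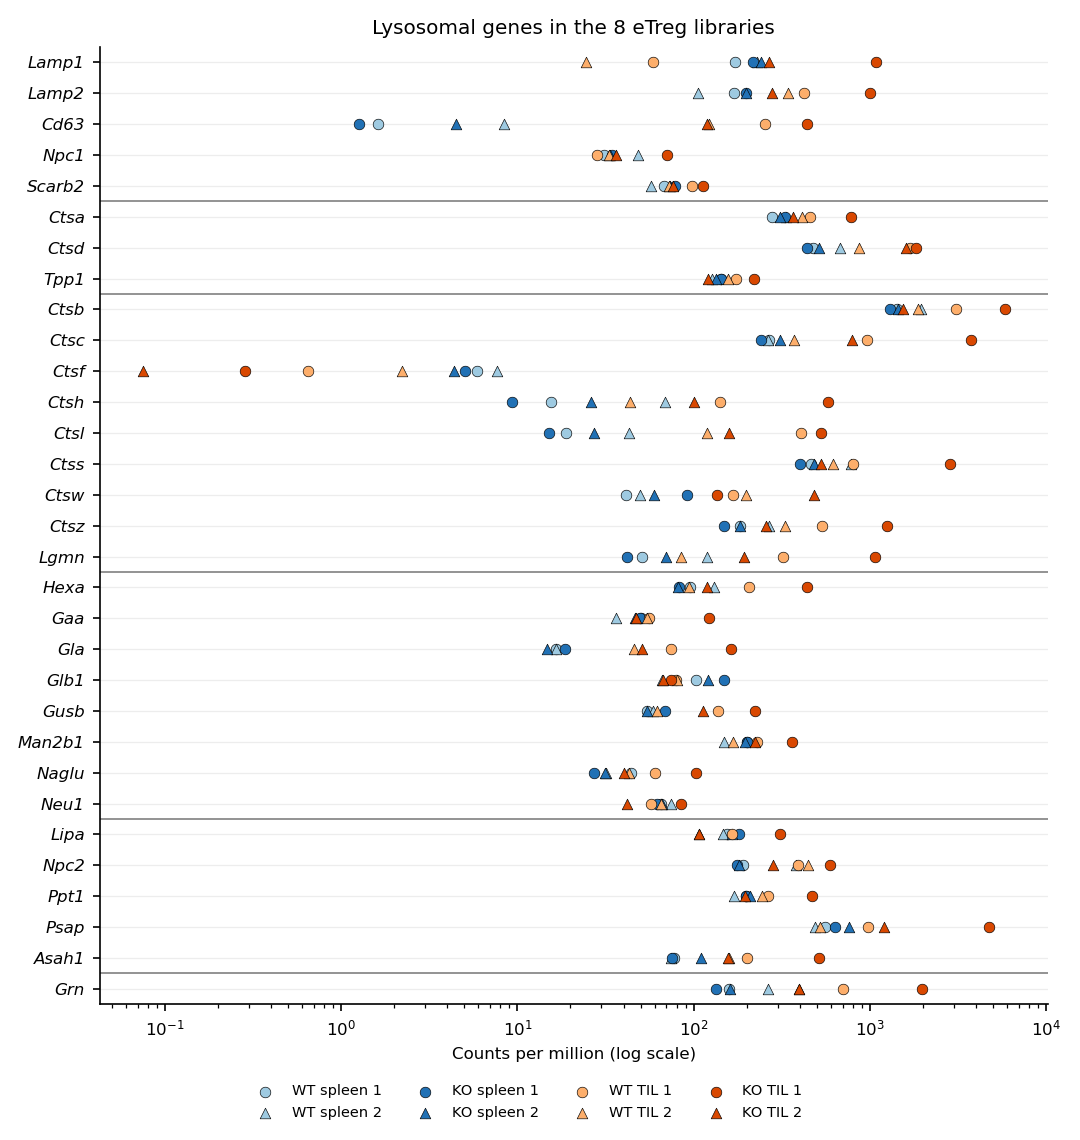
CPM (log axis) of the 31 lysosomal genes in each library, with genes grouped by role (membrane proteins, aspartic and serine proteases, cysteine proteases, glycosidases, lipid handling, progranulin); colours mark the groups, circles replicate 1 and triangles replicate 2. KO TIL 1 is the highest of the TIL libraries for 28 genes, Lamp1 is lowest in the WT TIL libraries, and Ctsf is lowest in the KO TIL libraries.

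Among the other membrane proteins, Cd63, a tetraspanin of late endosomes and granules that is also abundant in pigment cells, had the widest range. It was at 1.62 and 8.41 CPM in WT spleen, 1.27 and 4.48 CPM in KO spleen, 254 and 122 CPM in WT TIL, and 438.5 and 120 CPM in KO TIL. Its order among the TIL libraries was the order of the summed melanoma markers (3198 CPM in KO TIL 1, 2077 and 1140 CPM in WT TIL 1 and 2, 829.7 CPM in KO TIL 2), whose part in the level of Cd63 was not tested. The same order held for 13 of the 31 members, Lamp2 among them, and for 6.22% of all genes. The summed macrophage markers had another order, KO TIL 1, WT TIL 1, KO TIL 2, WT TIL 2 from high to low. Ctsc, Ctsd, Ctsh, Ctsl, Hexa, Gla, Gusb, Lgmn, Man2b1 and Scarb2 had that order, which was not counted over all genes. The part of macrophage RNA in their levels was not tested. Scarb2, the receptor that carries glucocerebrosidase to lysosomes, ranged from 57.4 to 113 CPM over all libraries. Npc1, the membrane transporter that exports cholesterol, ranged from 28.1 to 70.7 CPM. A transcript on its other strand, 3110002H16Rik, held a median of 1716 counts against 1177 for Npc1, so the values of Npc1 are uncertain. The same limit applies to Ppt1, which overlaps Cap1 on the other strand (medians of 7290.5 counts for Ppt1 and 5931 for Cap1). It applies less to Ctsz, which overlaps Nelfcd there (7384 and 1778.5 counts).

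The cysteine proteases included members far above spleen in the tumor and one, Ctsf, far below it in both genotypes. Ctsh, an aminopeptidase, was at 15.4 and 68.9 CPM in WT spleen, 9.32 and 26 CPM in KO spleen, 141.5 and 43.7 CPM in WT TIL, and 575 and 100.3 CPM in KO TIL. Ctsc, the dipeptidyl peptidase that activates granzymes, was at 269 and 265 CPM in WT spleen, 240.3 and 309 CPM in KO spleen, 961 and 370.1 CPM in WT TIL, and 3729 and 787 CPM in KO TIL. Lgmn, which cleaves after asparagine and activates other cathepsins, was at 50.75 and 119 CPM in WT spleen, 41.7 and 69.5 CPM in KO spleen, 320.4 and 85.3 CPM in WT TIL, and 1064 and 193 CPM in KO TIL. KO TIL 1 was far above the other TIL libraries in all of these, and WT TIL 2 lay within the splenic range for Ctsh and Lgmn.

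Ctsl, an endopeptidase of the papain family, was at 18.8 and 43 CPM in WT spleen, 15.1 and 27.2 CPM in KO spleen, 409 and 118 CPM in WT TIL, and 528 and 159 CPM in KO TIL. Ctsw, a cathepsin of cytotoxic lymphocytes, was at 41.4 and 49.4 CPM in WT spleen, 91.7 and 59.3 CPM in KO spleen, 168 and 198 CPM in WT TIL, and 136 and 479 CPM in KO TIL. Ctsw was the one member that was highest in KO TIL replicate 2, the library with the highest summed Cd8a and Cd8b1 (2220 CPM), whose part in Ctsw was not tested. Ctsf, another papain-family protease, was at 5.92 and 7.70 CPM in WT spleen and 5.07 and 4.38 CPM in KO spleen, but at 0.646 and 2.23 CPM in WT TIL and 0.286 and 0.0748 CPM in KO TIL. The KO TIL values rest on 9 and 2 counts and those in WT TIL on 18 and 66, and KO TIL 2 is under the floor of 3 counts, so the size of its fitted difference depends on the prior count. The remaining cysteine proteases, Ctsb, Ctss and Ctsz, ranged in the tumor from 257 CPM for Ctsz in KO TIL 2 to 5843 CPM for Ctsb in KO TIL 1.

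Of the glycosidases, Gla, the alpha-galactosidase that cleaves globotriaosylceramide, was at 16.6 and 16.65 CPM in WT spleen, 18.6 and 14.6 CPM in KO spleen, 74 and 45.85 CPM in WT TIL, and 164 and 51.1 CPM in KO TIL. Glb1, beta-galactosidase, was at 103 and 66.2 CPM in WT spleen, 148 and 121 CPM in KO spleen, 79.3 and 80.9 CPM in WT TIL, and 73.9 and 67 CPM in KO TIL, and it overlaps Tmppe on the same strand (a median of 618 counts against 2364). Its splenic values in KO lay above those in WT, and its KO TIL values lay below those in WT TIL. The other 6 glycosidases ranged from 27.3 CPM (Naglu, KO spleen 1) to 437 CPM (Hexa, KO TIL 1).

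Psap, the precursor of the saposins that hand glycosphingolipids to their hydrolases, was the member nearest to Lamp1 in the tumor. It was at 557 and 489 CPM in WT spleen, 631 and 757 CPM in KO spleen, 971.5 and 523 CPM in WT TIL, and 4722 and 1206 CPM in KO TIL. Both KO TIL libraries were above both WT TIL ones, as for Lamp1, but the WT TIL values overlapped those of WT spleen, with WT TIL 1 above all 4 splenic libraries and WT TIL 2 below 3 of them. Per kilobase of exon, Ctss, the protease of invariant chain processing, was the most abundant member in each splenic library (means of 928 TPM in WT and 878 TPM in KO). In the tumor the first place changed with the library, being that of Ctss in KO TIL 1 (4823 TPM) and WT TIL 2 (1106 TPM) and of Ctsd, the main aspartic protease, in KO TIL 2 (1590 TPM) and WT TIL 1 (1711 TPM). By group means on that scale Lamp1 ranked 7 of 31 in WT spleen, 6 in KO spleen, 10 in KO TIL and 27 in WT TIL (means of 157, 231, 585 and 37.4 TPM). Ctsf ranked last in all 4 groups.

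**Figure D2:**
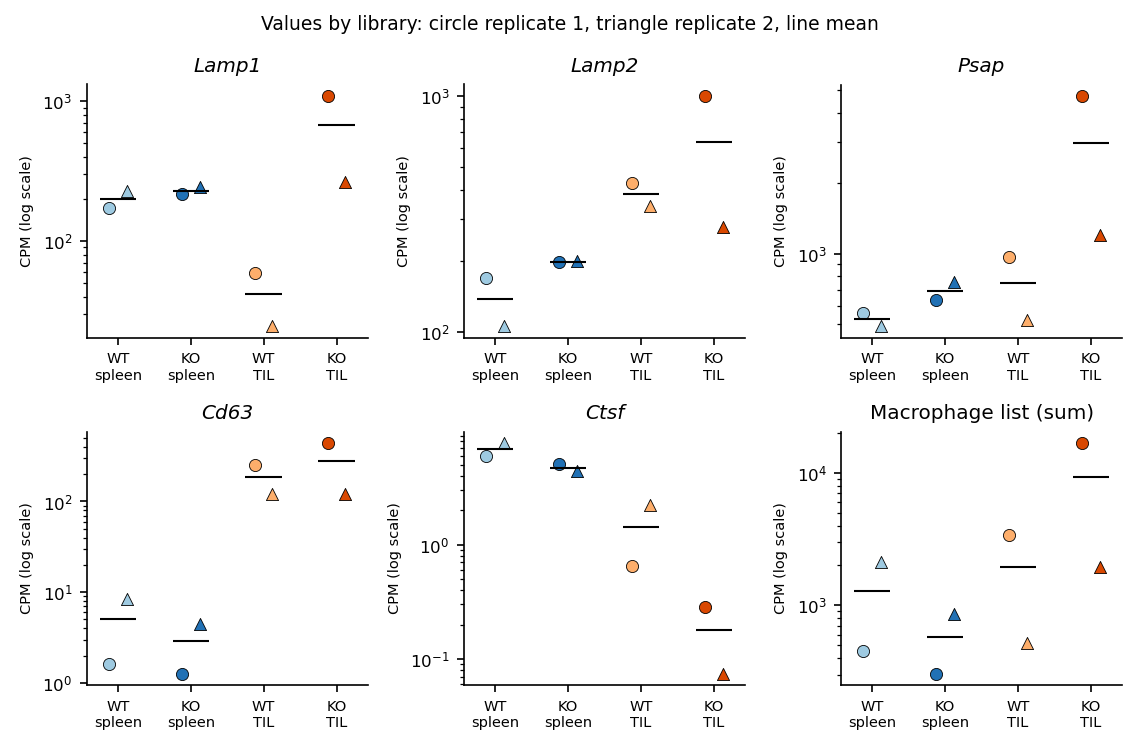
CPM (log axes, each with its own range) by library of Lamp1, Lamp2, Psap, Cd63, Ctsf and the sum of 12 macrophage markers; circles are replicate 1, triangles replicate 2 and lines the means of 2 libraries. Lamp1 is below spleen in WT TIL (58.65 and 24.56 CPM), where Lamp2 and Cd63 are above it and Psap overlaps it, and the macrophage sum is highest in KO TIL 1 (16670 CPM).

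In WT mice, the comparison of tumor with spleen asked what the tumor site did to lysosomal genes in Blimp1-sufficient eTreg cells. Lamp1 fell while 4 other members rose. Lamp1 averaged 41.6 ± 24.1 CPM in TIL and 201 ± 40.6 CPM in spleen (SD, n = 2), which was -2.27 on the log2 scale (standard error 0.53, edgeR quasi-likelihood adjusted p = 0.033). The members that rose were Cd63 (log2 fold change 5.22, adjusted p = 0.00588), Ctsl (3.09, 0.0261), Ctsw (2.01, 0.0259) and Gla (1.85, 0.0425) in the same edgeR test. The 5 calls among 31 compare with 5.97% of the 16427 genes tested that met both thresholds, adjusted p under 0.05 and a log2 change beyond 1 in either direction.

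The remaining 26 members gave no call in WT cells. Their values leaned upward: 25 of 31 had a positive log2 fold change, with a median of 0.52 against -0.04 over all genes tested. In 17 members the 2 TIL values were higher than either splenic value (25.1% of all genes), and in 3, Lamp1, Ctsf and Neu1, they were lower than either (27%). By role, the median was 1.13 for the cysteine proteases, 0.50 for the aspartic and serine proteases, 0.38 for the glycosidases and 0.52 for lipid handling. Lamp2 had a log2 fold change of 1.49 (adjusted p = 0.0979 from edgeR) and Ctsf of -2.24 (0.125). DESeq2's Wald test called 7 members, 5 higher and 2 lower, where it called 9.49% of genes. The 5 calls became 1, Cd63, with all 8 libraries in the fit (3.75% of genes). With each library left out in turn, Cd63 alone kept its call every time, and the others lost theirs in some of those fits. Lamp1's adjusted p, from edgeR or DESeq2, ran from 0.000841 to 0.405 over the alternatives. Its call was lost without WT spleen 2 (log2 -2.00), without WT TIL 1 (-3.01) or without WT TIL 2 (-1.74), with edgeR adjusted p of 0.134, 0.0872 and 0.405.

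In KO mice the same comparison gave another picture for Lamp1 and a broader upward lean for the rest. Lamp1 averaged 677 ± 581 CPM in TIL and 230 ± 17.5 CPM in spleen (SD, n = 2), and its difference of 1.59 on the log2 scale (standard error 0.71) was not called (edgeR adjusted p = 0.207). Lamp1 stood 16 of 31 in order of size, so its value was the median of the members, against a median of 0.01 over all genes tested. Both KO TIL libraries lay above both splenic ones for 23 members, Lamp1 and Lamp2 among them (30.6% of all genes did), and below them for Ctsf and Glb1 (32.9%).

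No member passed in KO cells with edgeR (1.35% of 16933 genes did). The smallest adjusted p was that of Ctsd (log2 fold change 1.86, adjusted p = 0.0536 from edgeR), followed by Cd63 (6.63, 0.0584) and Ctsf (-4.63, 0.0585). At an unadjusted p under 0.05 there were 17 members, 15 higher and 2 lower, against 31% of all genes, and DESeq2 called 18, 17 higher and 1 lower, against 18.9%. KO TIL replicate 1 decided the size of these values. Without it the members' median was 0.48 and Lamp1's log2 fold change 0.21 (standard error 0.16), and without replicate 2 they were 1.99 and 2.29, when Lamp1 was called (adjusted p = 0.000614 from edgeR, against 0.0837 to 0.547 over the other alternatives). With replicate 2 or replicate 1 as the single KO TIL library in the fit, 11 and 24 members were called (19.7% and 26.8% of all genes), the lone library being assumed to vary like the splenic ones.

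The comparison of KO with WT in the tumor asked whether the loss of Blimp1 moved Lamp1 alone or the lysosomal genes together. Lamp1 had the largest difference of the 31, 677 ± 581 CPM in KO against 41.6 ± 24.1 CPM in WT TIL (SD, n = 2), or 4.02 on the log2 scale (standard error 0.86). The study had named Lamp1 from this same contrast, and the other members were not chosen in that way. Its first place is therefore no independent support, here, with a library left out or in the interaction. It did not pass edgeR's test (adjusted p = 0.257), in which 0 of 31 members and 0% of 15935 genes did. Psap came next (1.98, standard error 0.74, adjusted p = 0.477 from edgeR), then Ctsh (1.86), Ctsc (1.76) and Lgmn (1.63). At the other end were Ctsf (-2.95, standard error 1.03, adjusted p = 0.449 from edgeR) and Glb1 (-0.19), the only members with a negative value.

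Lamp1, Psap and Ctsf were the members with an unadjusted p under 0.05 in this edgeR test, which 9.87% of genes reached. The study itself used DESeq2's Wald test on these libraries, so a DESeq2 call of Lamp1 is not independent of its having been named there. DESeq2's Wald test called Lamp1 (adjusted p = 2.39e-05) and no other member, where it called 4.43% of genes; over all alternatives the adjusted p of Lamp1, from edgeR or DESeq2, ran from 1.65e-05 to 1. The 2 KO TIL values were higher than either WT value for 3 members, Lamp1, Psap and Npc1 (whose values are uncertain), against 18% of all genes. They were lower than either for 2, Ctsf and Glb1, against 19.4%. The positive sign of 29 of 31 members (median 0.61, against 0.04 over all genes) therefore rested on overlapping groups for 26 of them.

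KO TIL replicate 1 set that sign. It was the highest TIL library for 28 of 31 members, which held for 32.2% of the genes tested, and in 23 members KO TIL 1 came first and WT TIL 1 second (14.3% of genes). The summed markers of macrophages, melanoma cells, NK cells and B cells also had KO TIL 1 first and WT TIL 1 second. The NK sum was mostly Tyrobp (733.4 CPM in KO TIL 1 and 164.8 CPM in WT TIL 1). Ncr1 and Klrb1c, the rest of that list, had KO TIL 1 first and KO TIL 2 second. In KO TIL 2 they were at 1.53 and 7.74 CPM, against 0.647 and 1.40 CPM in WT TIL 1. KO TIL 1 exceeded KO TIL 2 by a median of 3.2-fold over the members, against 0.994-fold over all genes, and WT TIL 1 exceeded WT TIL 2 by 1.41-fold, against 1.01-fold. Lamp1's own order, KO TIL 1, KO TIL 2, WT TIL 1, WT TIL 2, was shared by Psap alone (7.4% of genes). Without KO TIL 1, 9 of 31 members had a positive log2 fold change and the median was -0.26, but Lamp1 stayed the highest at 2.68 (standard error 0.53, adjusted p = 0.23 from edgeR), ahead of Ctsw (1.39) and Psap (0.69). Without KO TIL 2, 28 members were positive, the median was 1.16 and Lamp1 was at 4.69. Lamp1 was the highest of the 31 with any single library left out, at 3.51 to 4.77 without either WT TIL library. The part that RNA of any of these cell types had in these differences was not tested.

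**Figure D3:**
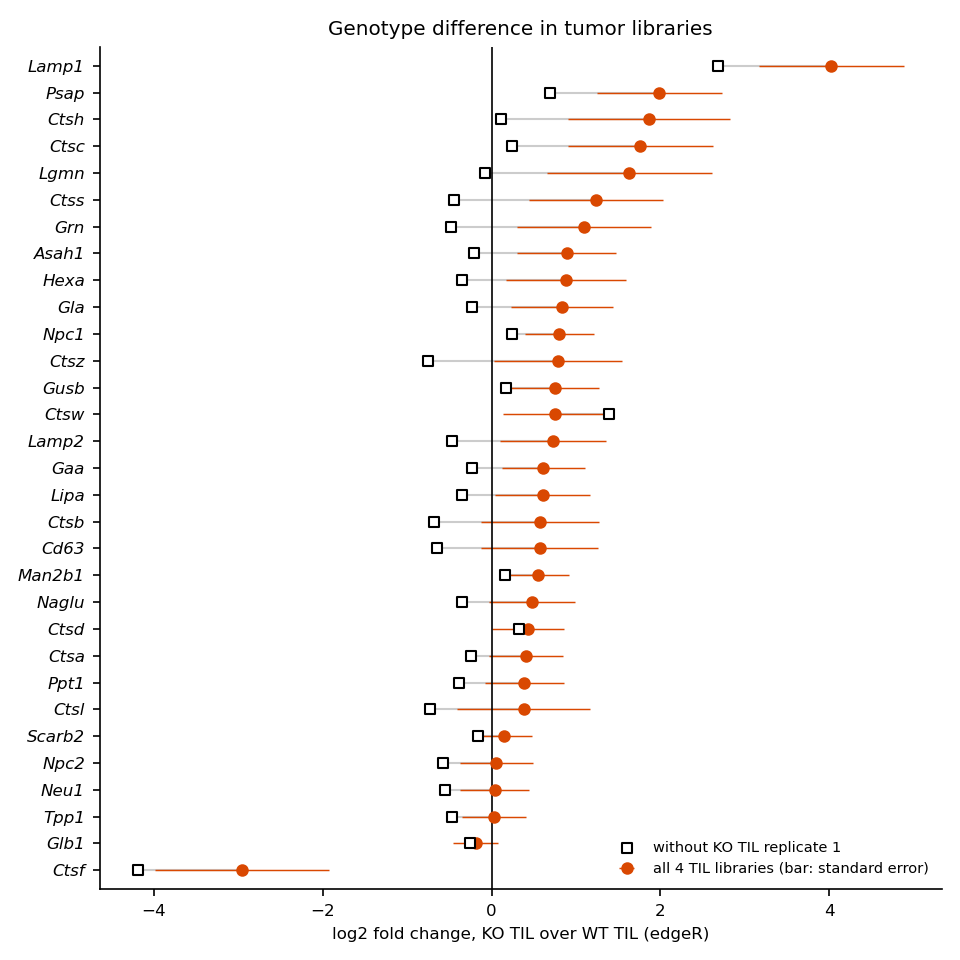
Log2 fold change of KO over WT TIL for the 31 members, from edgeR on all 4 TIL libraries (filled circles, bars are standard errors) and without KO TIL replicate 1 (open squares). Lamp1 is at 4.02 and 2.68 and leads both times, while the median of the members goes from 0.61 to -0.26 and Ctsf stays lowest at -2.95 and -4.19.

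Measured against the mean of the 4 splenic libraries, the median of the other 30 members stood at log2 1.86 and 0.28 in KO TIL replicates 1 and 2 and at 0.92 and 0.31 in WT TIL. Lamp1 stood at 2.34 and 0.31 in KO TIL, near those medians, and at -1.87 and -3.13 in WT TIL, far under them. Lamp1 thus lay farther from the median of the other members in the WT TIL libraries than in the KO TIL ones. Lamp1 was not alone in lying far from that median in WT TIL. Against WT spleen, edgeR's log2 fold change was 5.22 for Cd63 and -2.24 for Ctsf.

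In spleen, no difference between the genotypes was detected for the lysosomal genes. Lamp1 differed by 0.19 on the log2 scale (standard error 0.35, adjusted p = 0.907 from edgeR) and Lamp2 by 0.53 (standard error 0.37, 0.878). The 31 members ran from -1.26 (Ctsh) to 0.73 (Ctsw), with a median of -0.01 and -0.02 over all genes. None passed edgeR's adjusted test (0% of 16583 genes did) and none reached an unadjusted p under 0.05 (2.95% of genes did), and DESeq2 called none (0.441% of genes). In 7 members both KO libraries were above both WT ones and in 4 below, 11 of 31 in all, and 32.1% of all genes were separate in either direction. Leaving out WT spleen 1 gave 4 calls of 31, where it called 22.1% of all genes, with Glb1 higher in KO (1.08) and Ctsh (-1.91), Lgmn (-1.04) and Npc2 (-1.03) lower, in a fit where the lone WT library was assumed to vary like the KO ones. Npc2 is named here after its value was seen.

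Whether the genotype difference differed between tumor and spleen was tested as an interaction over all 8 libraries. Lamp1 again had the largest value, 3.83 on the log2 scale (standard error 0.93, adjusted p = 0.288 from edgeR), followed by Ctsh (3.12, standard error 1.40), and Ctsf had the lowest (-2.42, standard error 1.05). With edgeR 0 of 31 members passed (0% of 17870 genes did) and 2, Lamp1 and Ctsf, reached an unadjusted p under 0.05 (7.83% of genes). DESeq2 called Lamp1 alone among the members (adjusted p = 0.0046, with 1.93% of genes called), and the adjusted p of Lamp1, from edgeR or DESeq2, ran from 7.5e-07 to 1 over the alternatives. The interaction was 0.20 for Lamp2 (standard error 0.77) and 1.58 for Psap (standard error 0.84). Without KO spleen 2, Ctsh had the largest interaction (4.04) and Lamp1 came next (3.90).

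Lamp1 also differed from the other members in base composition. The richest 200-nt stretch of its longest GENCODE transcript, beginning at base 61, was 81.5% G or C, the highest of the 31, followed by Cd63 at 77.5%, Naglu at 74.5% and Ctsf at 73.5%, and Psap was at 64.5%. Genes whose richest stretch held 80 to 85% had a median log2 fold change of 1.04 between KO and WT TIL (728 genes), against 0.26 for 75 to 80% and 0.04 for 70 to 75%, and above 85% it was 0.56 (151 genes, none at Lamp1's value). In WT TIL against spleen the 80 to 85% band had a median of -0.71 (726 genes, with 64 at or below Lamp1's -2.27), and medians were close to it above 85% (-0.65) and below 50% (-0.70). In KO TIL against spleen the 80 to 85% band was at 0.38. Lamp1's 4.02 between KO and WT TIL was reached by 8 of the 728 genes of its band, itself included. The part of base composition in Lamp1's difference was not tested.

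**Figure D4:**
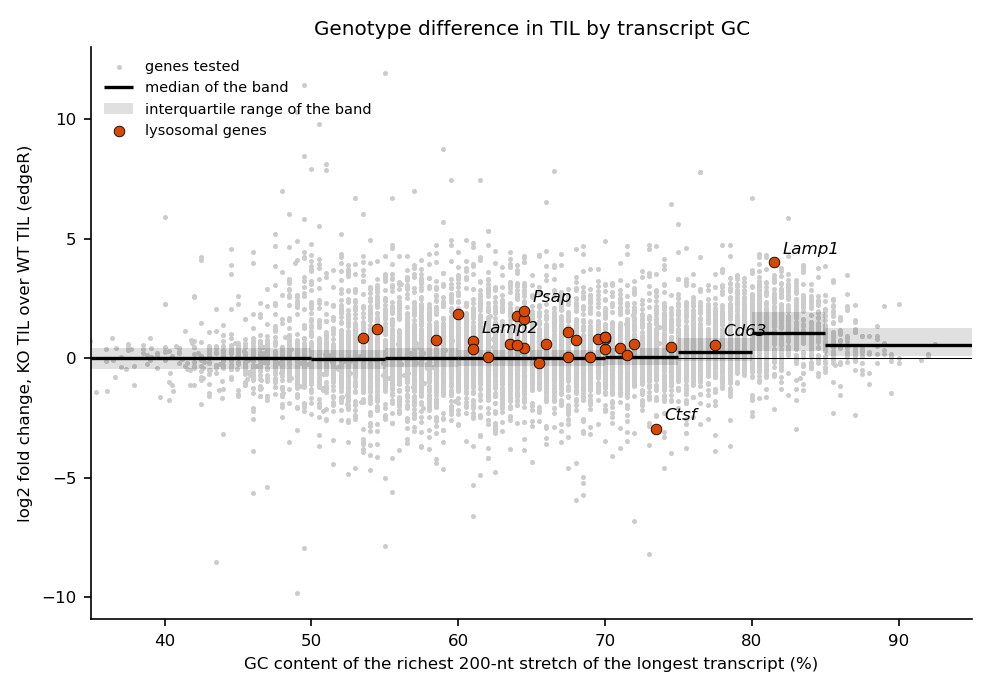
Log2 fold change of KO over WT TIL (edgeR) against the GC content of the richest 200-nt stretch of the longest transcript, for all genes tested (grey), the median and interquartile range of each GC band (lines and shading) and the lysosomal genes (orange). Lamp1 lies at 81.5% and 4.02, above its band's median of 1.04, and the other members lie at 77.5% or less.

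Other lysosomal genes, in 6 lists, gave 4 edgeR calls of 87 tested in WT TIL against spleen, where 5.97% of all genes were called. In KO TIL against spleen they gave 2 calls of 87 (1.35% of all genes). They gave none between the genotypes, in TIL or spleen, or in the interaction (0% of all genes each time). Of 17 subunits and accessory proteins of the v-ATPase, the proton pump that acidifies lysosomes, none passed edgeR in any comparison. Their median log2 fold change was 0.44 in WT TIL against spleen, 0.81 in KO TIL against spleen and 0.34 between KO and WT TIL, and the smallest adjusted p was that of Atp6v0a1 in WT (2.15, adjusted p = 0.06 from edgeR). Among 23 other hydrolases and activators, Ctsk, a collagen-degrading cathepsin, passed in WT TIL against spleen (adjusted p = 0.0191 from edgeR), and no gene passed elsewhere. Ctsk was at 7.69 and 0.641 CPM in WT TIL and at 0.0299 and 0 CPM in WT spleen, on 1 and 0 counts, under the floor of 3, so the size of its fitted difference depends on the prior count and is not given. Their medians were 0.43, 0.38 and 0.16 in the same 3 comparisons.

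Of 14 genes that sort enzymes to lysosomes, Gnptab, a subunit of the phosphotransferase that makes the mannose 6-phosphate tag, was called in KO TIL against spleen (2.31, adjusted p = 0.0374 from edgeR) and was at 2.49 between KO and WT TIL (adjusted p = 0.205 from edgeR). No gene was called among 15 regulators and membrane channels, where Mitf, the melanocyte factor related to Tfeb, was at 2.47 in WT and 4.56 in KO TIL against spleen (adjusted p = 0.0998 and 0.0599 from edgeR). Of 12 genes of lytic granule exocytosis, Prf1 (perforin) and Fasl rose in WT TIL against spleen (5.13 and 2.23, adjusted p = 0.00587 and 0.0192 from edgeR), and Prf1 rose in KO TIL against spleen (8.85, adjusted p = 0.0485 from edgeR). Prf1 was at 241.1 and 1307 CPM in KO TIL 1 and 2, and at 244.5 and 42.03 CPM in WT TIL 1 and 2. KO TIL 2 was also the library with the highest summed Cd8a and Cd8b1 (2220 CPM), whose part in Prf1 was not tested. Of 7 inhibitors of cathepsins and granule proteases, 6 were tested, and Serpinb9, which inhibits granzyme B, rose in WT TIL against spleen (2.81, adjusted p = 0.0125 from edgeR). Of these 88 genes, 86 or 87 were tested in a comparison. At an unadjusted p under 0.05 from edgeR there were 17 in WT TIL against spleen (20.5% of all genes) and 26 in KO TIL against spleen (31%), and DESeq2 called 11 (9.49%) and 22 (18.9%). Between KO and WT, 6 reached it in TIL (9.87%), 5 in spleen (2.95%) and 4 in the interaction (7.83%), and DESeq2 called 1 in each (4.43%, 0.441% and 1.93%).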

How the data were processed

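RNA-seq of 8 libraries of sorted eTreg cells was analysed. The authors deposited raw counts per gene, made with Trimmomatic 0.36, STAR 2.5.2b on GRCm38 and featureCounts of Subread 1.5.2, counting unique reads within exons. The study's strand setting is not given in the sources used here. The table of normalized values was not used. The members, lists and tests were chosen with earlier results of these data known.

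CPM are counts on totals scaled by TMM over 8 libraries, and TPM also divide by summed exon length. Each comparison used edgeR's quasi-likelihood test (edgeR 4.0.16, R 4.3.3) on its 4 libraries after filterByExpr, with Benjamini-Hochberg adjustment over all genes, and a call needed an adjusted p under 0.05 and a log2 change beyond 1 in either direction. The interaction used all 8 libraries. A standard error is the log2 value divided by the square root of F. The edgeR test was also run on simulated counts with added changes, at a low spread and at that of these libraries. What it recovered there is not given here. The alternatives were DESeq2 1.42.0, its size factors in edgeR, no low-count filter, all 8 libraries in a fit, other fold thresholds, a replicate block and leaving out each library. DESeq2's Wald test with the same thresholds was the study's own test.

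Values were printed by library for Lamp1, Lamp2, members called by edgeR in any comparison, and the 5 members highest and the 5 lowest below 0 between KO and WT TIL. Replicates differed beyond sampling noise (chi-square over its degrees of freedom, 37.17 to 344.4), and 3 counts, taken as the floor, were 0.0644 to 0.112 CPM; these cover counting error only, as reads that were amplified and carry no molecular identifier may repeat a molecule. GC content was taken in 200-nt windows moved by 20 nt along the longest GENCODE M21 transcript, for 97% or more of the genes tested in the 3 comparisons given.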

Additional observations from a re-analysis of the deposited data

Results flagged for a closer look

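For 2 members the groups separated in opposite directions in the 2 genotypes or the 2 tissues. Both KO TIL libraries lay above both KO splenic ones for Lamp1, and both WT TIL libraries lay below both WT splenic ones, a pattern that 3.55% of 17870 genes had. The interaction of Lamp1 was 3.83 on the log2 scale (standard error 0.93) and did not pass edgeR's test (adjusted p = 0.288). For Glb1 both KO libraries lay below both WT ones in TIL and above them in spleen, which 5.36% of genes did, and its interaction of -0.85 (standard error 0.46) did not pass either (adjusted p = 0.728 from edgeR).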

How the results depend on the processing

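Of 60 log2 values of the 12 members named, 42 kept their sign under every alternative run. Lamp1 kept it in all 5 comparisons. The calls depended more on the processing, and the cause was not tested. In WT TIL against spleen the 5 calls became 1 with all 8 libraries in the fit (3.75% of all genes called) and 1 to 4 with a library left out (1.22% to 7.87%). In KO TIL against KO spleen the 0 calls became 18 with DESeq2 (18.9%), 17 with no filter on low counts (11.6%), 9 with all 8 libraries (9.75%) and 0 to 24 with a library left out (0% to 26.8%). Between KO and WT TIL they became 1 with DESeq2 (Lamp1, 4.43% of genes) and 4 with no filter (Lamp1, Psap, Ctsh, Ctsc, 4.04% of genes), and in the interaction 1 (Lamp1, 1.93%) and 3 (Lamp1, Ctsh, Lgmn, 2.6%). In spleen, leaving out a library gave 0 to 4 calls (0.12% to 22.1%).

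The labels do not say whether libraries with the same number share a mouse or a day, so no pairing was assumed. Same-numbered libraries deviated with a correlation of -0.01 in WT, -0.28 in KO, 0.30 in TIL and 0.23 in spleen. With the replicate number as a block, 6, 0, 2, 0 and 2 members were called in WT and KO TIL against spleen, in KO against WT TIL and spleen, and in the interaction, both pairs of calls being Lamp1 and Ctsh, where 8.91%, 1.13%, 4.57%, 0.609% and 1.55% of all genes were called. Lamp1 was then at 3.82 between KO and WT TIL (adjusted p = 0.00652 from edgeR) and 3.62 in the interaction (adjusted p = 0.0152 from edgeR). A crossed pairing in KO TIL against KO spleen, chosen after seeing the data, gave 12 calls (17.3% of genes).

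Sign changes were as follows, as log2 values. In KO against WT spleen, Gla (-0.0073) was at 0.031 with DESeq2, 0.00058 with its size factors and 0.054 with no filter. In the interaction, Lamp2 (0.20) was at -0.11 and Ctsw (0.015) at -0.22 with the block, and Ctsw at -0.039 with no filter. With a library left out, KO against WT TIL ran from -0.47 to 1.36 for Lamp2, -0.65 to 1.20 for Cd63, -0.73 to 1.52 for Ctsl, -0.45 to 1.39 for Ctsw, -0.23 to 1.43 for Gla and -0.074 to 2.87 for Lgmn. In KO against WT spleen it ran from -1.97 to 0.83 for Cd63, -1.03 to 0.17 for Ctsl, -0.16 to 0.17 for Gla, -2.17 to 0.20 for Ctsh, -0.15 to 0.23 for Ctsc and -1.04 to 0.14 for Lgmn. The interaction ran from -1.01 to 0.85 for Lamp2, -0.26 to 2.55 for Cd63, -0.20 to 2.12 for Ctsl, -1.15 to 0.64 for Ctsw and -0.24 to 1.46 for Gla, and WT TIL against spleen from -0.32 to 0.29 for Glb1. Ctsf among the members, with 2 counts in a library, and Ctsk among the other genes named, with 0 and 1, were limited by depth.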
